A study of Homo sapiens with 6 samples.

Results

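The integrated stress response genes described here are 35 named genes: the kinases that start the response, its transcription factors, and the enzymes, transporters and feedback proteins those factors are known to control. They were taken by symbol from the deposited table of 35615 gene symbols. All 35 were found, and all 35 were among the 14543 genes with enough counts to be tested. K562 cells, an erythroleukaemia line derived from chronic myeloid leukaemia and carrying the BCR-ABL1 fusion, were nucleofected (a form of electroporation) with one of a pair of small RNAs. The 3 libraries called miR92a 1 to 3 received a synthetic mimic of miR-92a-1-5p, a microRNA of the miR-17-92 cluster. The 3 libraries called scramble 1 to 3 received a negative control mimic. Each transfection used 5000000 cells and 500 pmol of mimic. All 6 cultures got imatinib, a BCR-ABL1 kinase inhibitor, at 1 µM from 4 h after the nucleofection, and were lysed for RNA 24 h after the drug. The labels give all of them the genotype Control. There is no culture without imatinib, so every value below is a difference between 2 mimics in the drug. A transfected mimic can also exceed the microRNA's natural level, which bears on what these cells model, and the level reached was not measured in these files.

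The scramble libraries held 25394557, 25395013 and 24751862 counts, and libraries miR92a 2 and 3 held 25982085 and 25628676. Library miR92a 1 held 704448, 36.0-fold below the median of the others, and 8 of the 35 genes had fewer than 10 counts in it (CHAC1, PHGDH, VLDLR, STC2, ALDH1L2, NUPR1, GPT2 and CTH). The 12 K562 and erythroid markers summed to between 12600 and 20200 counts per 1000000 (CPM) in the scramble libraries and to between 10000 and 19100 CPM in the mimic libraries, with none at 0. By edgeR 0 of these 12 were called without the block, with 1 at an unadjusted p under 0.05 (13.5% of all tested genes). By DESeq2 1 was called (TFRC, lower), by limma-voom 0. With the replicate number as a block HBZ and TFRC were lower. TFRC, the transferrin receptor, measured 1364, 1326 and 2031 CPM in the scramble libraries and 886, 833 and 1219 CPM in the mimic libraries (log2 fold change -0.68, edgeR adjusted p = 0.175, and 2.04e-06 with the block). The labels call the cell type a myeloblast, but the myeloblast markers MPO and CTSG had 0 counts in all 6 libraries and the list of 8 summed to at most 9.81 CPM. Lymphoid markers summed to between 7.69 and 7.94 CPM in the scramble libraries and to between 5.44 and 8.02 CPM in the mimic libraries, and fibroblast markers to between 3.08 and 5.18 CPM and between 1.36 and 2.18 CPM. Epithelial markers, nearly all of it EPCAM, summed to between 136 and 177 CPM and to between 162 and 176 CPM, with KRT5 and KRT14 at 0. With the block AZU1 of the myeloblast list and COL1A1 of the fibroblast list were lower too. The part of these markers in the results below was not tested.

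The integrated stress response starts with a kinase that phosphorylates the alpha subunit of eIF2, the factor that brings the initiator tRNA to the ribosome. There are several such kinases, each answering to another stress: amino acid shortage, misfolded protein in the endoplasmic reticulum, lack of haem or damaged mitochondria, and double-stranded RNA. Phosphorylation lowers protein synthesis as a whole while the mRNA of ATF4 is translated more, and ATF4 then switches on genes for amino acid synthesis and uptake, for redox balance and for its own feedback. Because ATF4 is controlled largely in translation, RNA levels report on its targets more directly than on ATF4 itself. In erythroid cells the haem-regulated kinase, encoded by EIF2AK1, is the abundant one and matches globin synthesis to haem supply.

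MicroRNAs pair with the 3′ UTRs of mRNAs through their seed, bases 2 to 8, and the mimic's sequence is printed to show which letters a target would carry. The mature miR-92a-1-5p is listed in RefSeq (GRCh38.p14) for MIR92A1 at chr13:91351324-91351346 on the plus strand, with the seed in capitals below.
hsa-miR-92a-1-5p: aGGUUGGGaucgguugcaaugcu
The sites searched on the mRNA strand of the longest GENCODE 29 3′ UTR were CCCAACC (pairing with bases 2 to 8), CCAACCA (bases 2 to 7 followed by A) and CCCAACCA, which contains both. One of them was present in 2 of the 35 genes (5.71%), PYCR1 and EIF2AK4, against 2173 of 12888 tested genes with an annotated 3′ UTR (16.9%). Using every annotated 3′ UTR instead, the numbers were 2 of 35 and 2395 genes (18.6%). The shorter 6-letter match CCAACC, without a longer one, was present in 7 of the 35 (20.0%: CEBPB, EIF2AK1, NUPR1, SESN2, SHMT2, SLC7A5 and VLDLR) against 1321 tested genes (10.2%). The 2 longer matches, both of the CCCAACC kind, are shown in their context on the mRNA strand with the match in capitals.
PYCR1, match at chr17:81933001-81933007, minus strand: ggggtggattcCCCAACCtcaacctccttt
EIF2AK4, match at chr15:39974967-39974973, plus strand: caagctttactCCCAACCcagttcgtatat
The PYCR1 match began at base 349 of a 3′ UTR of 972 bases and was present in 7 of 8 coding transcripts with a 3′ UTR. The EIF2AK4 match began at base 1185 of 1647 and belonged to 1 of 5 coding transcripts. A match describes the letters and is not a measured site.

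Of the 35 genes PYCR1 alone passed the test without a term for the replicate number, and it fell with the mimic. edgeR's quasi-likelihood test with Benjamini-Hochberg adjustment over all 14543 genes called PYCR1 lower and 0 of the 35 higher at an adjusted p under 0.05. Over all tested genes the same test called 0.976% lower and 0.433% higher. At an unadjusted p under 0.05 the 35 held 1 lower and 4 higher gene (ASNS, PSAT1, PHGDH and CBS). Over all tested genes 1964 of 14543 (13.5%) had such a p, counting both directions. DESeq2 called 1 lower and 0 higher, and limma-voom called 0 in either direction. The median log2 fold change of the 35 was 0.053, beside -0.012 over all tested genes, with 23 positive and 12 negative values between -0.89 and 1.19. For 27 of the 35 (77.1%) the 95% interval of the log2 fold change lay within 1 unit either way. Each library is RNA from a whole culture, so fewer cells expressing a gene and less of its RNA per cell cannot be told apart.

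With the replicate number as a block in the model, PYCR1 was again lower and 5 genes were higher: ASNS, PSAT1, PHGDH, SLC7A5 and CBS. The blocked test called 6.7% of all tested genes lower and 4.57% higher, so 1 lower and 5 higher among 35 stand against a background that is itself several times larger than without the block. The median of the 35 was 0.065 with the block, beside -0.015 over all genes. In 1 of the 35 genes (2.86%, PYCR1) all 3 mimic libraries lay below all 3 scramble libraries, against 11.5% of tested genes. In 6 of the 35 (17.1%: ATF4, ASNS, PSAT1, SLC7A5, PCK2 and CBS) all 3 mimic libraries lay above, against 9.73%. Without library miR92a 1 the test without a block called 0 lower and 0 higher of the 35, and the blocked test without pair 1 called 1 lower and 5 higher, of which 4 were among the 5 above: CBS was lost and SLC3A2 gained.

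**Figure D1:**
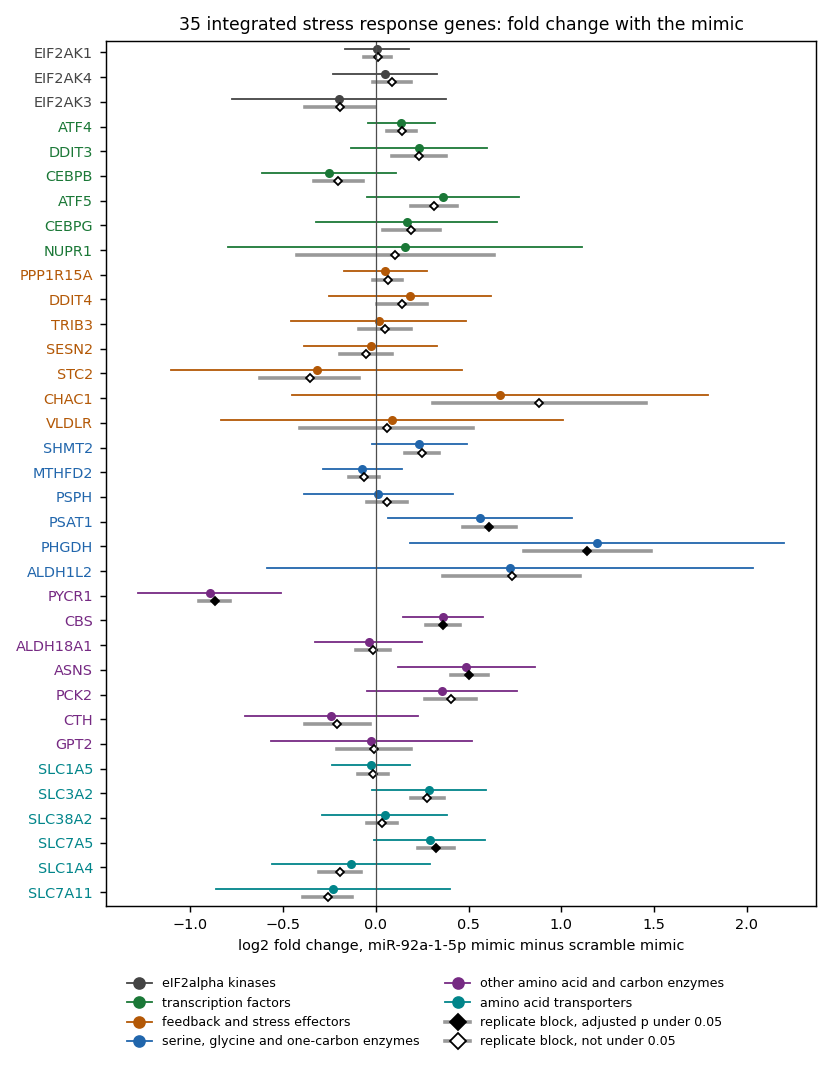
Log2 fold change (miR-92a-1-5p mimic minus scramble) of the 35 genes, by role. Coloured points and lines give the estimate and its 95% interval without the block, grey bars the blocked estimate ± its standard error, and black diamonds the genes past an adjusted p of 0.05 with the block. PYCR1 at -0.89 is the one gene past the threshold in both fits.

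PYCR1 makes proline from pyrroline-5-carboxylate in mitochondria, the last step of proline synthesis, and lies at chr17:81932384-81942412 on the minus strand (GRCh38). It measured 205, 219 and 152 CPM in scramble 1 to 3 and 103, 119 and 87.7 CPM in miR92a 1 to 3. The groups did not overlap: the highest mimic library was below the lowest scramble library. Means were 192 ± 35.7 and 103 ± 15.5 CPM (SD, n = 3 each), a 1.86-fold lower level with a log2 fold change of -0.89 ± 0.17 (SE, 95% interval -1.28 to -0.51, edgeR adjusted p = 0.0448). The drop was present in each same-numbered pair, at -0.99, -0.88 and -0.79 on the log2 scale for pairs 1, 2 and 3. With the block the estimate was -0.87 ± 0.085 (edgeR adjusted p = 6.36e-07). Library miR92a 1 gave 76 PYCR1 counts, with an exact 95% Poisson interval of 59.9 to 95.1 that covers counting error only. Without the block the call rested on most single libraries: the edgeR adjusted p rose to 0.153 without scramble 1, 0.169 without scramble 2, 0.158 without miR92a 1, 0.0808 without miR92a 2 and 0.117 without miR92a 3, and fell to 0.0102 without scramble 3. The estimate stayed between -1.04 and -0.76 in these fits.

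The genes around PYCR1 in proline synthesis are given for comparison, the paralog PYCRL and the neighbour MYADML2 having been chosen after their values were seen. ALDH18A1, which makes the precursor of pyrroline-5-carboxylate from glutamate, measured 100, 103 and 79.3 CPM in the scramble libraries and 102, 92.2 and 85.5 CPM in the mimic libraries. These overlapped, with a log2 fold change of -0.037 (95% interval -0.33 to 0.25, edgeR adjusted p = 0.951). PYCRL, the table's older symbol for the cytosolic form PYCR3, had 21.1 ± 0.645 and 17.0 ± 2.99 CPM (SD, n = 3 each, log2 fold change -0.22, edgeR adjusted p = 0.571). Neither ALDH18A1 nor PYCRL passed the test without or with the block, and whether their change differs from that of PYCR1 was not tested. MYADML2, which overlaps PYCR1 on the same strand, had between 0 and 9 counts in a library.

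Asparagine synthetase, ASNS, is a classical ATF4 target that makes asparagine from aspartate and glutamine. It measured 48.4, 51.8 and 38.0 CPM in the scramble libraries and 69.4, 72.8 and 54.1 CPM in the mimic libraries. All 3 mimic libraries lay above all 3 scramble libraries, and replicate 3 was the lowest in both groups. The log2 fold change was 0.49 ± 0.16 (edgeR adjusted p = 0.23) without the block and 0.50 ± 0.10 (adjusted p = 0.00212) with it. The same-numbered pairs gave 0.52, 0.49 and 0.51, so the difference varied less between pairs than the level did between replicates. The blocked call was lost without pair 2 (edgeR adjusted p = 0.0565), with the estimate at 0.51.

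Serine is made from a glycolytic intermediate by PHGDH, PSAT1 and PSPH in turn, and SHMT2, MTHFD2 and ALDH1L2 carry its carbon into the mitochondrial folate cycle. The 6 genes had a median log2 fold change of 0.40, with 5 positive and 1 negative. None was called without the block by edgeR, DESeq2 or limma-voom, and 2 were at an unadjusted p under 0.05, both higher. Of all tested genes 13.5% had such a p, in either direction. With the block 2 were higher, PSAT1 and PHGDH, beside 4.57% of all tested genes. The median differed between same-numbered pairs, at -0.03, 0.18 and 0.53.

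PSAT1, the aminotransferase of the second step, measured 17.7, 17.0 and 12.3 CPM in the scramble libraries and 34.0, 22.6 and 19.7 CPM in the mimic libraries. The groups did not overlap, and the highest value was that of the shallow library, where it rests on 25 counts (exact 95% Poisson interval 16.2 to 36.9). The log2 fold change was 0.56 ± 0.22 (edgeR adjusted p = 0.31) without the block and 0.61 ± 0.15 (adjusted p = 0.00826) with it. Leaving out any one pair kept the blocked call, with edgeR adjusted p between 0.0193 and 0.0379.

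PHGDH, the enzyme of the first step, was scarce, with 45, 46 and 48 counts in the scramble libraries and 0, 147 and 100 in the mimic libraries. In CPM these were 1.76, 1.82 and 2.00 against 0, 5.61 and 4.01. Libraries miR92a 2 and 3 lay above all scramble libraries, while the 0 in miR92a 1 allows up to 4.08 CPM (3 counts) and so says little at that depth. The log2 fold change was 1.19 ± 0.44 (edgeR adjusted p = 0.286) without the block and 1.14 ± 0.34 (adjusted p = 0.034) with it. Without library miR92a 1 it was 1.37 (edgeR adjusted p = 0.11), and the blocked call was lost without pair 2 (0.60, edgeR adjusted p = 0.775) and without pair 3 (1.2, adjusted p = 0.143).

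PSPH, which completes serine, had 45.6 ± 7.95 and 45.9 ± 7.50 CPM (SD, n = 3 each, log2 fold change 0.015, edgeR adjusted p = 0.992). SHMT2, which splits serine into glycine and a one-carbon unit, measured 118, 123 and 102 CPM against 117, 146 and 134 CPM (log2 fold change 0.24 ± 0.11, edgeR adjusted p = 0.416, and 0.0836 with the block). MTHFD2, the next enzyme of the mitochondrial folate pathway, had a log2 fold change of -0.072 (edgeR adjusted p = 0.817). For ALDH1L2, a mitochondrial formyltetrahydrofolate dehydrogenase, the libraries spread from 1.16 to 4.39 CPM in the scramble group and from 2.77 to 8.16 CPM in the mimic group, with a log2 fold change of 0.72 ± 0.57 (edgeR adjusted p = 0.668).

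Among the other enzymes of amino acid and carbon metabolism, CBS and CTH are the 2 steps that turn homocysteine into cysteine. CBS measured 86.4, 91.4 and 81.6 CPM in the scramble libraries and 116, 104 and 116 CPM in the mimic libraries, with no overlap. Its log2 fold change was 0.36 ± 0.094 (edgeR adjusted p = 0.128) without the block and 0.36 ± 0.092 (adjusted p = 0.0133) with it, and the blocked call was lost without pair 1 (adjusted p = 0.0647). CBSL, a nearly identical copy of CBS, had between 0 and 6 counts in a library, and how reads were divided between the copies was not tested. CTH, the second step, had a log2 fold change of -0.24 (edgeR adjusted p = 0.697), negative in all 3 pairs. PCK2, the mitochondrial PEP carboxykinase, measured 19.9, 19.9 and 14.3 CPM against 25.9, 24.7 and 20.6 CPM, without overlap (log2 fold change 0.36 ± 0.18, edgeR adjusted p = 0.434, and 0.0639 with the block). GPT2, the mitochondrial alanine aminotransferase, had a log2 fold change of -0.024 (edgeR adjusted p = 0.99). Together with ASNS, PYCR1 and ALDH18A1 these 7 enzymes had a median of -0.024, the lowest of the 6 role groups.

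**Figure D2:**
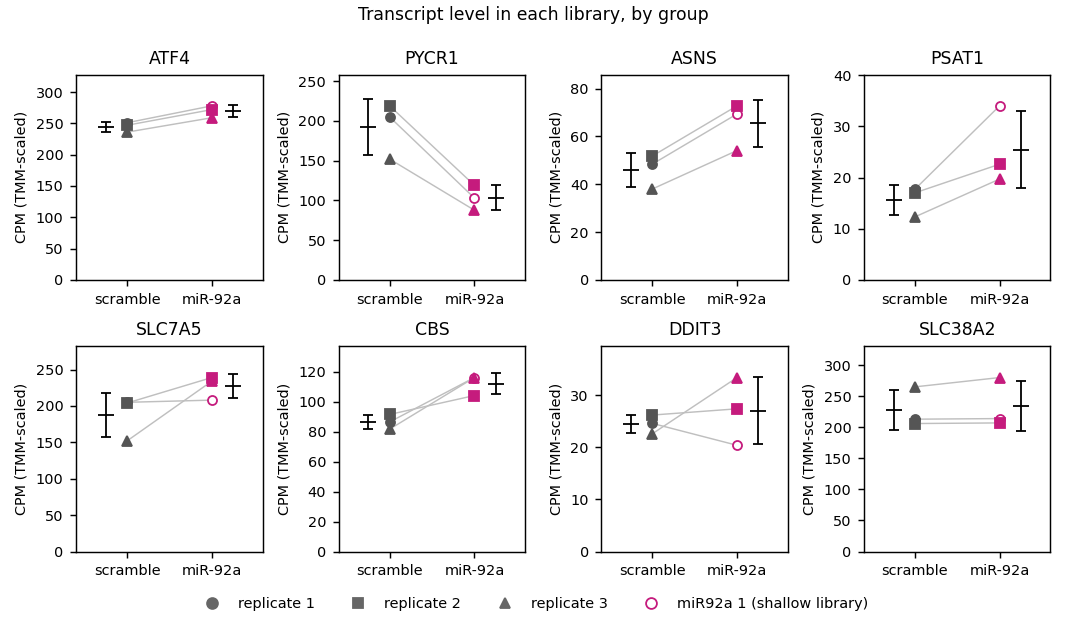
Level in CPM of 8 of the genes in each library, with thin lines joining libraries that share a replicate number and bars giving the mean ± SD of each group (n = 3). The open point is the shallow library miR92a 1. PYCR1 is lower in each mimic library than in each scramble library, ASNS, PSAT1, SLC7A5, CBS and ATF4 are higher in each, and DDIT3 and SLC38A2 overlap.

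SLC7A5 (LAT1) exchanges large neutral amino acids such as leucine across the plasma membrane, in a heterodimer with the heavy chain SLC3A2. SLC7A5 measured 205, 204 and 152 CPM in the scramble libraries and 208, 239 and 234 CPM in the mimic libraries. The groups did not overlap, but by a small margin, and the pairs gave 0.019, 0.23 and 0.62 on the log2 scale, so pair 3 held most of the difference. The log2 fold change was 0.29 ± 0.13 (edgeR adjusted p = 0.384) without the block and 0.33 ± 0.096 (adjusted p = 0.0326) with it. Without pair 3 the blocked value was 0.17 (edgeR adjusted p = 0.159), and without pair 2 it was 0.36 (adjusted p = 0.102).

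SLC3A2 measured 169, 165 and 178 CPM against 167, 196 and 250 CPM, overlapping and with its largest value in miR92a 3 (log2 fold change 0.29 ± 0.13, edgeR adjusted p = 0.406, and 0.0515 with the block). Without pair 1 the blocked value was 0.37 (edgeR adjusted p = 0.0412). SLC7A11, which pairs with the same heavy chain and imports cystine for glutathione, measured 47.4, 46.1 and 34.9 CPM against 40.8, 48.8 and 22.4 CPM (log2 fold change -0.23, edgeR adjusted p = 0.80). Its sign rested on miR92a 3: without that library the log2 fold change was 0.12 (edgeR adjusted p = 0.872), and with the block and without pair 3 it was 0.027 (adjusted p = 0.983). SLC38A2 (SNAT2), the sodium-coupled transporter of small neutral amino acids, measured 213, 206 and 265 CPM against 214, 207 and 280 CPM (log2 fold change 0.048, edgeR adjusted p = 0.944). SLC1A5 (ASCT2), the glutamine transporter, measured 322, 333 and 283 CPM against 295, 305 and 320 CPM (log2 fold change -0.023 ± 0.092, edgeR adjusted p = 0.96). SLC1A4 (ASCT1), which carries alanine, serine and cysteine, had a log2 fold change of -0.13 (edgeR adjusted p = 0.831) and was lower in all 3 pairs. The 6 transporters had a median of 0.012, with 0 called without the block by edgeR, DESeq2 or limma-voom and 0 at an unadjusted p under 0.05. With the block 1 was higher, beside 4.57% of all tested genes.

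ATF4, the central transcription factor of the response, measured 251, 247 and 236 CPM in the scramble libraries and 278, 272 and 259 CPM in the mimic libraries. All 3 mimic libraries lay above all 3 scramble libraries, and the pairs gave 0.15, 0.14 and 0.14 on the log2 scale. Means were 244 ± 7.59 and 270 ± 9.27 CPM (SD, n = 3 each), with a log2 fold change of 0.14 ± 0.079 (95% interval -0.044 to 0.32). The difference did not pass the test (edgeR adjusted p = 0.526, and 0.28 with the block). These are mRNA levels, and ATF4 translation was not measured.

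ATF5, a relative of ATF4 that is also controlled in translation, measured 24.4, 27.1 and 33.4 CPM against 27.2, 33.9 and 42.7 CPM. It was higher in each mimic library than in the scramble library of its number, but the groups overlapped (log2 fold change 0.36 ± 0.18, edgeR adjusted p = 0.43, and 0.114 with the block). DDIT3, which encodes CHOP, the factor that links a lasting response to cell death, measured 24.6, 26.2 and 22.6 CPM against 20.4, 27.4 and 33.4 CPM. The mimic group held both its lowest and its highest value, and the log2 fold change was 0.23 ± 0.16 (edgeR adjusted p = 0.609, and 0.352 with the block).

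CEBPB, a partner of ATF4 and CHOP, measured 29.9, 29.2 and 22.6 CPM against 27.2, 22.9 and 21.5 CPM. It was lower in all 3 pairs, with overlapping groups (log2 fold change -0.25 ± 0.16, edgeR adjusted p = 0.571). CEBPG, another C/EBP partner of ATF4, measured 29.1, 25.1 and 23.4 CPM against 20.4, 37.9 and 23.5 CPM, with both extremes in the mimic group (log2 fold change 0.17, edgeR adjusted p = 0.814). NUPR1, a small stress-induced chromatin protein, was near the floor, at 0.641 ± 0.0632 and 0.912 ± 0.418 CPM (SD, n = 3 each, log2 fold change 0.16, edgeR adjusted p = 0.93). None of the 6 transcription factors was called with or without the block, nor by DESeq2 or limma-voom. Without the block 0 of them were at an unadjusted p under 0.05, and their median was 0.16.

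No kinase passed the test. EIF2AK1 (HRI), the haem-regulated kinase, measured 657, 652 and 627 CPM in the scramble libraries and 633, 664 and 650 CPM in the mimic libraries, with a log2 fold change of 0.0090 ± 0.076 (95% interval -0.16 to 0.18, edgeR adjusted p = 0.988). EIF2AK4 (GCN2), which senses uncharged tRNA and holds the CCCAACC match shown above, measured 59.2, 53.5 and 47.2 CPM against 55.8, 59.4 and 50.7 CPM (log2 fold change 0.051 ± 0.12, 95% interval -0.23 to 0.33, edgeR adjusted p = 0.921). EIF2AK3 (PERK), the kinase of the endoplasmic reticulum, measured 13.5, 11 and 13.6 CPM against 19.1, 11.4 and 8.5 CPM, again with both extremes in the mimic group (log2 fold change -0.20 ± 0.25, edgeR adjusted p = 0.816). The highest EIF2AK3 value, in the shallow library miR92a 1, rests on 14 counts (exact 95% Poisson interval 7.65 to 23.5). None of the 3 kinases was called with or without the block, by DESeq2 or by limma-voom, and none was at an unadjusted p under 0.05.

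The feedback and effector genes overlapped between the groups throughout. PPP1R15A (GADD34), which directs a phosphatase to eIF2 alpha and so ends the response, measured 237, 234 and 201 CPM against 238, 242 and 219 CPM (log2 fold change 0.053 ± 0.098, 95% interval -0.17 to 0.28, edgeR adjusted p = 0.887). TRIB3, a pseudokinase that is a target of ATF4 and CHOP and restrains them, measured 27.2, 31.9 and 20.1 CPM against 20.4, 31.2 and 24.4 CPM (log2 fold change 0.016 ± 0.21, edgeR adjusted p = 0.994). CHAC1, which degrades glutathione and is among the most inducible ATF4 targets, was barely detected, with 16, 7 and 12 counts in the scramble libraries and 0, 19 and 21 in the mimic libraries. At such counts its log2 fold change of 0.67 ± 0.49 had a 95% interval of -0.45 to 1.79 (edgeR adjusted p = 0.638).

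DDIT4 (REDD1) and SESN2 both restrain mTORC1. DDIT4 measured 26.9, 30.4 and 30.9 CPM against 20.4, 31.0 and 41.1 CPM (log2 fold change 0.19 ± 0.19, edgeR adjusted p = 0.758). SESN2 measured 19.1, 21.3 and 20.7 CPM against 13.6, 20.2 and 22.0 CPM (log2 fold change -0.026 ± 0.16, edgeR adjusted p = 0.98). In both genes the shallow library gave the lowest value and miR92a 3 the highest. STC2, a secreted glycoprotein induced by stress in the endoplasmic reticulum, had a log2 fold change of -0.32 (edgeR adjusted p = 0.773), and VLDLR, a lipoprotein receptor, one of 0.090 (adjusted p = 0.967). The 7 genes of this group had a median of 0.053, with 0 called with or without the block, 0 by DESeq2 or limma-voom, and 0 at an unadjusted p under 0.05.

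Levels between genes were compared in the scramble libraries as CPM per kilobase of the longest coding GENCODE transcript. The order ran over more than 3 powers of 10. EIF2AK1 stood first at 144 ± 3.56 and ATF4 second at 121 ± 3.78 (SD, n = 3 each). They were followed by SLC1A5 at 108 ± 9.05, PYCR1 at 101 ± 18.7 and PPP1R15A at 94.2 ± 8.52. The intervals of mean ± SD of these last 3 overlapped, and that of PYCR1 also overlapped that of ATF4, so the order of these is not resolved. In the mimic libraries PYCR1 measured 54.2 ± 8.11 per kilobase, below SLC3A2 (92.0 ± 18.8). At the other end stood CHAC1 at 0.253 ± 0.0961, NUPR1 at 0.117 ± 0.0115 and VLDLR at 0.0968 ± 0.0307, and PHGDH at 0.719 ± 0.0468 was 31st of the 35. The intervals of NUPR1 and VLDLR overlapped, so their order is not resolved either. DDIT3 (22.9 ± 1.66), ASNS (19.6 ± 3.05) and TRIB3 (10.6 ± 2.37) lay in the middle. These per-kilobase levels use 1 transcript length per gene, and the isoforms used in these cells were not measured here.

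**Figure D3:**
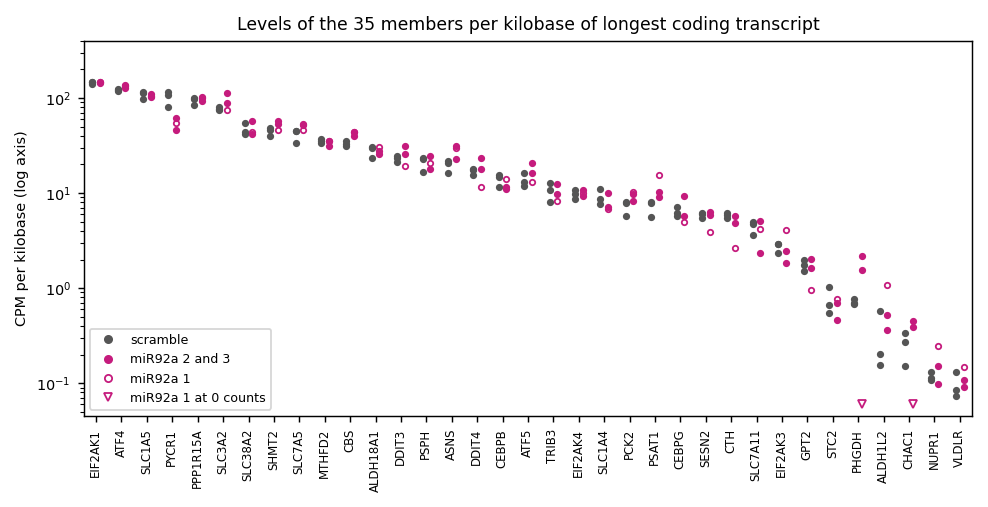
Level of the 35 genes per library in CPM per kilobase of the longest coding transcript, on a log axis, ordered by the scramble mean. Triangles mark genes with 0 counts in miR92a 1 (PHGDH and CHAC1). EIF2AK1 and ATF4 lead at 144 and 121 in the scramble libraries. VLDLR has the lowest scramble mean at 0.0968, with an SD range that overlaps that of NUPR1 (0.117).

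Many of these genes varied with the replicate number in the same direction in both groups. In 14 of the 35 (40.0%) replicate 3 was below both other replicates in both groups, against 22.1% of all tested genes: ATF4, ASNS, PSAT1, PSPH, MTHFD2, SLC7A11, CEBPB, PPP1R15A, STC2, ALDH1L2, PCK2, EIF2AK4, ALDH18A1 and PYCR1. In 5 (14.3%: ATF5, DDIT4, SLC3A2, SLC38A2 and SLC1A4) it was above both others in both groups, against 24.9% of all tested genes. With the 4 deep libraries of replicates 2 and 3 alone, the log2 difference of replicate 3 minus replicate 2 (CPM plus 0.5) had a median of -0.18 in the scramble group and -0.11 in the mimic group, beside -0.0027 and -0.00020 over all tested genes.

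Of the 35 differences 28 (80.0%) had the same sign in both groups, 20 lower and 8 higher in replicate 3, beside 70.2% of all tested genes (5133 lower and 5083 higher of 14543). Across the 35 genes, which are not independent replicates, Pearson's r between the groups was 0.549, beside 0.595 across the 14543 tested genes. ASNS differed by -0.44 in the scramble group and -0.43 in the mimic group, PYCR1 by -0.53 and -0.43, and PSPH by -0.43 and -0.46. SLC38A2 was higher in replicate 3 by 0.37 and 0.44, and SLC1A4 by 0.34 and 0.46. For SLC7A11 the differences were -0.40 in the scramble group and -1.11 in the mimic group. The ASNS difference between replicates is set beside its log2 fold change between mimics, 0.49.

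**Figure D4:**
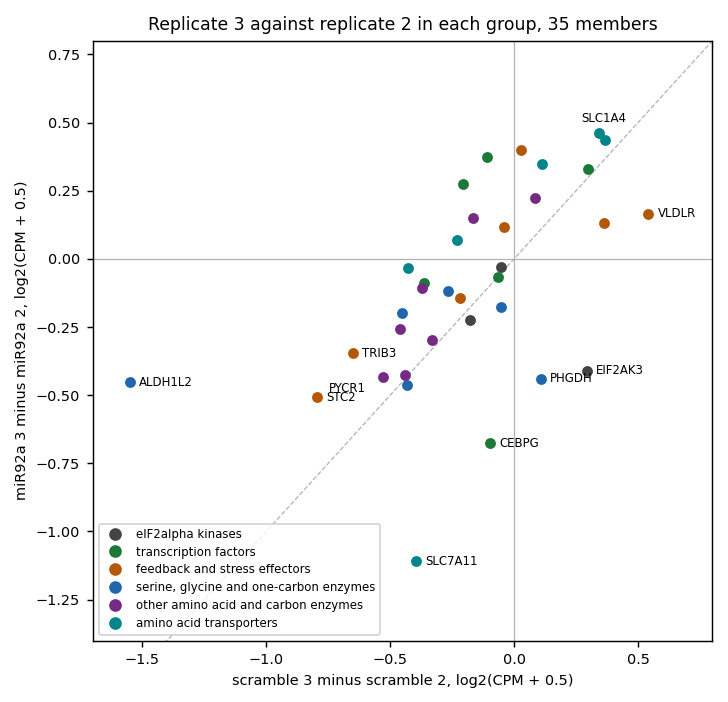
Log2 difference of replicate 3 minus replicate 2 (CPM plus 0.5) in the scramble group (x axis) and in the mimic group (y axis), with 1 point per gene and the dashed line marking equal differences. Of the 35 genes, 28 share their sign in both groups, among them ASNS, PYCR1 and PSPH below 0 and SLC38A2 and SLC1A4 above.

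Within same-numbered pairs, 9 of the 35 genes (25.7%: ATF4, ATF5, ASNS, PSAT1, SLC7A5, PPP1R15A, PCK2, SLC38A2 and CBS) were higher with the mimic in all 3 pairs, beside 19.9% of tested genes. Another 5 (14.3%: MTHFD2, CEBPB, SLC1A4, PYCR1 and CTH) were lower in all 3, beside 24.5%. The median of the 35 was -0.055 in pair 1, which holds the shallow library, 0.055 in pair 2 and 0.12 in pair 3. The numbers shared by the labels are not stated to mark a common culture or day.

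ATF4 binds DNA as a dimer with C/EBP proteins at a composite element, and the promoters that carry it are shown as a description. The list holds genes that these factors are known to control, so the shares below are not independent of how it was drawn up. TGATGNAA was searched on both strands of the RefSeq promoter windows (GRCh38.p14), each 300 bases long, from 250 before to 50 after a start. Of the 35 genes 27 had a window, and 6 of these (22.2%) held the element: ASNS, CHAC1, CEBPG, SLC1A5, SLC1A4 and SLC3A2. The share was 2.78% of the 10265 tested genes with a window and 4.46% of all 27305 genes with one. The 4 elements that lie wholly upstream of the start are shown on the gene's strand, with the 8 letters in capitals.
ASNS, chr7:97872458-97872487, minus strand, 68 bases upstream: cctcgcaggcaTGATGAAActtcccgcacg
CEBPG, chr19:33374060-33374089, plus strand, 42 bases upstream: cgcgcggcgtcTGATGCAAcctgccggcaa
SLC1A5, chr19:46784893-46784922, minus strand, 97 bases upstream: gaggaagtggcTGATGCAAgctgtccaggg
CHAC1, chr15:40953251-40953280, plus strand, 209 bases upstream, the element reading on the opposite strand: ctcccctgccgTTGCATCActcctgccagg
Of these 6 genes ASNS alone was called with the block. The other 5 had log2 fold changes of 0.67 (CHAC1), 0.29 (SLC3A2), 0.17 (CEBPG), -0.023 (SLC1A5) and -0.13 (SLC1A4), none past the test. No window was given for PYCR1, SLC7A11, GPT2, NUPR1, ALDH1L2, SHMT2, EIF2AK1 and PSPH. A match is not a binding site, and a window without these letters says nothing of ATF4 binding elsewhere.

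Further lists of pathway genes were read from the same fit. Of 16 genes of the eIF2 machinery and its regulators, 1 was lower and 0 higher without the block, the same as by DESeq2 and by limma-voom. At an unadjusted p under 0.05 there were 3 lower and 1 higher, beside 13.5% of all tested genes in either direction. The list's median was -0.044. The lower gene was EIF2A, which measured 97.2, 95.9 and 103 CPM in the scramble libraries and 46.3, 59.0 and 63.6 CPM in the mimic libraries. EIF2A encodes a separate initiation factor and not a subunit of eIF2, and its groups were far apart (log2 fold change -0.75 ± 0.11, edgeR adjusted p = 0.0194). The call was lost without scramble 1 (edgeR adjusted p = 0.0931), scramble 2 (0.0831) or miR92a 2 (0.0942). With the block PPP1R15B, the constitutive partner of the eIF2 alpha phosphatase, was lower too (log2 fold change -0.35 ± 0.092, edgeR adjusted p = 0.0165), a call lost without pair 1 (adjusted p = 0.117) and without pair 2 (0.222).

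Of 26 further ATF4 and CHOP targets 0 were called without the block, by edgeR, DESeq2 or limma-voom. With an unadjusted p under 0.05 there were 0 lower and 4 higher, beside 13.5% of all tested genes in either direction. Their median was 0.16. With the block 3 were higher and 1 was lower. GRB10, an adaptor that damps insulin signalling, was higher by 0.41 on the log2 scale (edgeR adjusted p = 0.00255), and LONP1, the protease of the mitochondrial matrix, by 0.37 (adjusted p = 0.00913). TXNIP, a thioredoxin-binding protein that restrains glucose uptake, fell by 0.35 on the log2 scale (edgeR adjusted p = 0.00341). It measured 909, 880 and 479 CPM in the scramble libraries and 706, 694 and 381 CPM in the mimic libraries. These groups overlapped, with replicate 3 lowest in both (edgeR adjusted p = 0.67 without the block). The remaining higher gene was NIBAN1, listed as FAM129A, at 0.30 (edgeR adjusted p = 0.0495). Without pair 2 the blocked calls of GRB10 (edgeR adjusted p = 0.0708), LONP1 (0.0529) and TXNIP (0.0751) were lost, and that of TXNIP also without pair 1 (0.0518).

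Of 15 genes of the other branches of the unfolded protein response, 0 were lower and 1 was higher. This held without the block, with it, by DESeq2 and by limma-voom. The same 0 and 1 had an unadjusted p under 0.05, beside 13.5% of all tested genes in either direction. The higher gene was PDIA4, a disulphide isomerase of the endoplasmic reticulum. It measured 11.1, 11.6 and 6.11 CPM in the scramble libraries and 39.5, 25.6 and 22.9 CPM in the mimic libraries, a 2.81-fold difference with no overlap (log2 fold change 1.49 ± 0.28, edgeR adjusted p = 0.0462). With the block it was 1.57 (edgeR adjusted p = 2.04e-06). Without the block the call held when scramble 3 was left out (edgeR adjusted p = 0.0352) and was lost when any other library was (between 0.0692 and 0.138), among them miR92a 1 (log2 fold change 1.34, adjusted p = 0.132). The list's median was 0.0043, and HSPA5, the chaperone BiP that reports on load in the endoplasmic reticulum, had 280 ± 78.0 and 257 ± 23.5 CPM (SD, n = 3 each, edgeR adjusted p = 0.862).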

How the data were processed

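RNA from 6 K562 cultures was sequenced, and the authors deposited 1 table of estimated (expected) counts per gene symbol. Per the submitters' processing notes the tools and build include kallisto and GRCh38. The kallisto version, annotation, strand setting and transcript-to-gene step are not given in the sources used here, and the deposited estimated counts are whole numbers. The 35 genes and the other lists were chosen with earlier results of these data known, as were the gene naming rules. Values were given in every library for genes past adjusted p 0.05 in either fit and for central regulators. From each other list up to 4 genes past it without the block, or otherwise up to 3 with it, were named, largest change first. NIBAN1, HSPA5, PPP1R15B and PYCR1's paralog PYCRL, its neighbour MYADML2 and CBSL were named after their values were seen. The labels call the samples biological replicates but name no separate culture or day, so p-values measure the spread between these libraries, which may be technical.

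Of 35615 symbols, 12102 were at 0 in all libraries and 14543 passed filterByExpr. Counts were fitted over all these genes with edgeR 4.0.16 in R 4.3.3 (TMM scaling, quasi-likelihood F-test, group alone), with Benjamini-Hochberg adjustment. The standard error is the log2 fold change divided by the square root of F, and CPM uses TMM-scaled totals. Differences within pairs are log2 CPM with a prior count of 2. DESeq2 1.42.0, limma 3.58.1 (voom), other scaling, other filters, a fold of 1.2, left-out libraries and the replicate number as a block were alternatives. A count of 3 is 4.08 CPM in miR92a 1 and 0.115 to 0.125 CPM elsewhere.

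Same-numbered libraries deviated together (r = 0.154, 0.16 and 0.42 over 14543 genes, and 0.37, 0.475 and 0.634 over 4829 abundant genes, averaging 1000 counts or more), which met the pairing rule used here from the data alone. Over those abundant genes scramble 1 and miR92a 2 correlated at 0.517, so beyond replicate 3 the numbers are not shown to pair the cultures. Figures and tables used Python 3.11.15. Seed matches used GENCODE 29. A withheld item is not reported here.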

Additional observations from a re-analysis of the deposited data

How the results depend on the processing

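With the replicate block all genes called rose from 142 lower and 63 higher to 975 and 664, and the 35 genes from 0 higher to 5 (1 lower in both). With the block and without pair 1, 2 or 3, all genes gave 751, 549 and 866 lower and 486, 285 and 554 higher, and the 35 gave 1 lower each time and 5, 2 and 3 higher. With replicate 3 as a batch term the counts were 1262 lower and 976 higher, with 9 of the 35 higher. DESeq2 called 247 lower and 140 higher, and a test against a fold of 1.2 called 64 and 17. Leaving out 1 library without the block gave 56 to 148 lower and 14 to 53 higher over all genes, and 0 to 1 lower and 0 higher of the 35. Of the 35, 0 were lower by limma-voom (PYCR1 adjusted p = 0.0613), with library totals alone (0.0701) and against a fold of 1.2 (0.127). The cause was not tested.

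The median of the 35 stayed between 0.017 and 0.115 under every alternative run, and 2 genes held a longer seed match with either choice of 3′ UTR. Over 41 single genes and 735 values, 0 called values changed sign, 20 lost and 38 gained a call, and 47 uncalled values changed sign. PYCR1 had adjusted p between 2.7e-27 and 0.169 over its alternatives, EIF2A between 2.21e-14 and 0.0942, PDIA4 between 5.12e-12 and 0.138. The shallow library limits scarce genes: 40.3% of tested genes had under 10 counts in it, against 1.89 to 2.52% elsewhere.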
